A study of Mus musculus with 2 samples.

Results

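The *Hox* genes were described on 2 Affymetrix mouse genome arrays of perigonadal WAT, 1 from WT mice and 1 from PeriA Tg mice. A member was any gene named *Hoxa*, *Hoxb*, *Hoxc* or *Hoxd* with a number, represented by at least 1 probe set annotated to that symbol alone. This gave 33 genes of 18193 on the array, with 48 probe sets of 45037. RefSeq lists 39 such genes in the mouse, and the remaining 6 were not analysed here as genes of their own. Where a gene had several probe sets, the probe set with the highest mean log2 signal stood for it.

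Both groups were female, 30 weeks old, on a C57BL/6 background and fed HFD, and the depot is the visceral fat that surrounds the gonads. Tg mice were heterozygous for human PeriA, the lipid droplet coat protein perilipin A, under the aP2 promoter/enhancer. The labels call this promoter adipocyte specific, although aP2 (*Fabp4*) is also expressed by macrophages. WT mice were littermates without the transgene. RNA of 3 mice was pooled for each array, so each genotype was a single pool on a single array and there was no replicate. The spread between mice is therefore unknown, no test was made, and no p-value is given.

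*Hox* genes encode homeodomain transcription factors that give cells their position along the head-to-tail axis of the embryo. They lie in 4 clusters, a to d, and members with the same number in different clusters are paralogues: low numbers are used towards the head and high numbers towards the tail. Fat depots keep the *Hox* pattern of the region in which they formed, and progenitor cells isolated from a depot retain it in culture. *Hoxc8* is known to hold back the brown fat gene programme in white fat progenitors, *Hoxc9* is used as a marker of white against classical brown fat, and *Hoxc10* is known for higher expression in subcutaneous than in visceral fat.

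The clusters lie on chromosomes 6 (*Hoxa*), 11 (*Hoxb*), 15 (*Hoxc*) and 2 (*Hoxd*) in GRCm38.p6. The 250 bases in front of the annotated start of 4 genes are printed first, because these genes are among the 7 described below with the larger signal on the Tg array, and RefSeq gave a promoter entry for them. *Hoxb5*, *Hoxc5* and *Hoxc10* are named only. The genes are *Hoxa5* (chr6:52204588-52204837, minus strand), *Hoxa9* (chr6:52227371-52227620, minus strand), *Hoxc4* (chr15:103034145-103034394, plus strand) and *Hoxd9* (chr2:74697513-74697762, plus strand). Sequences run 5′ to 3′ on the strand of the gene, and capitals mark a GC box, the letters GGGCGG on either strand.
Hoxa5: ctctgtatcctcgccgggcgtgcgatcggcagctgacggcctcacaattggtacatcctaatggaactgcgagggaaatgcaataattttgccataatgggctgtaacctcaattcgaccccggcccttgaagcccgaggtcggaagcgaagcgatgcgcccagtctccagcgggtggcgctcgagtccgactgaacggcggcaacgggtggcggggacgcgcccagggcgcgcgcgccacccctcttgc
Hoxa9: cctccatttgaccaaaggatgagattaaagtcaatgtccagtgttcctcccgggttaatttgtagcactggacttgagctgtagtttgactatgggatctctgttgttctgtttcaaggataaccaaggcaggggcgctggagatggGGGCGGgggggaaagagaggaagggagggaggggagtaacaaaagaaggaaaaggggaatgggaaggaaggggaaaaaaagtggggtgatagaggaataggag
Hoxc4: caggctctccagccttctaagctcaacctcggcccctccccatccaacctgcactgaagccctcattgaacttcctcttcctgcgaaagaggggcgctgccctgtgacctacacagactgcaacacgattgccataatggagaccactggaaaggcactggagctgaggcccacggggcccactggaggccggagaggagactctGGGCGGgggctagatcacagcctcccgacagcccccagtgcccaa
Hoxd9: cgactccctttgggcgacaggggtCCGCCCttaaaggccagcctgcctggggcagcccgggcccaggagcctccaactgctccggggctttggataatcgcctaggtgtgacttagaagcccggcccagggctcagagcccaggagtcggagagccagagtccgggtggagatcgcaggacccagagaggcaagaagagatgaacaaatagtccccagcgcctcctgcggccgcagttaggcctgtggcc

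*Hoxa5* held 28 CpG dinucleotides and no GC box in this window. *Hoxa9* held 3 CpG, *Hoxc4* 8 and *Hoxd9* 13, each with 1 GC box. A GC box was in 32.7% of all 32851 promoter windows of this length, whose median was 6 CpG, and in 4 of the 12 windows (33.3%) of *Hox* genes that passed the signal filter, whose median was 13 CpG. A match is a description of these letters, not a binding site. No measurement of binding or methylation was made on these samples.

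The values are MAS5 signals, a linear intensity per probe set, and the difference between genotypes is the signal log ratio, log2 of Tg over WT. A probe set passed the signal filter when the higher of its signals reached 98.2, the median signal over the WT and Tg arrays. Of 33 *Hox* genes, 20 passed (60.6%), beside 63.7% of all genes. All but *Hoxd10* reached the filter on both arrays, and *Hoxd10* reached it on the WT array alone. Signals of the 20 genes lay between 96.1 and 1696.0. Signals of different probe sets were not ranked against each other, since their probes differ in affinity.

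**Figure D1:**
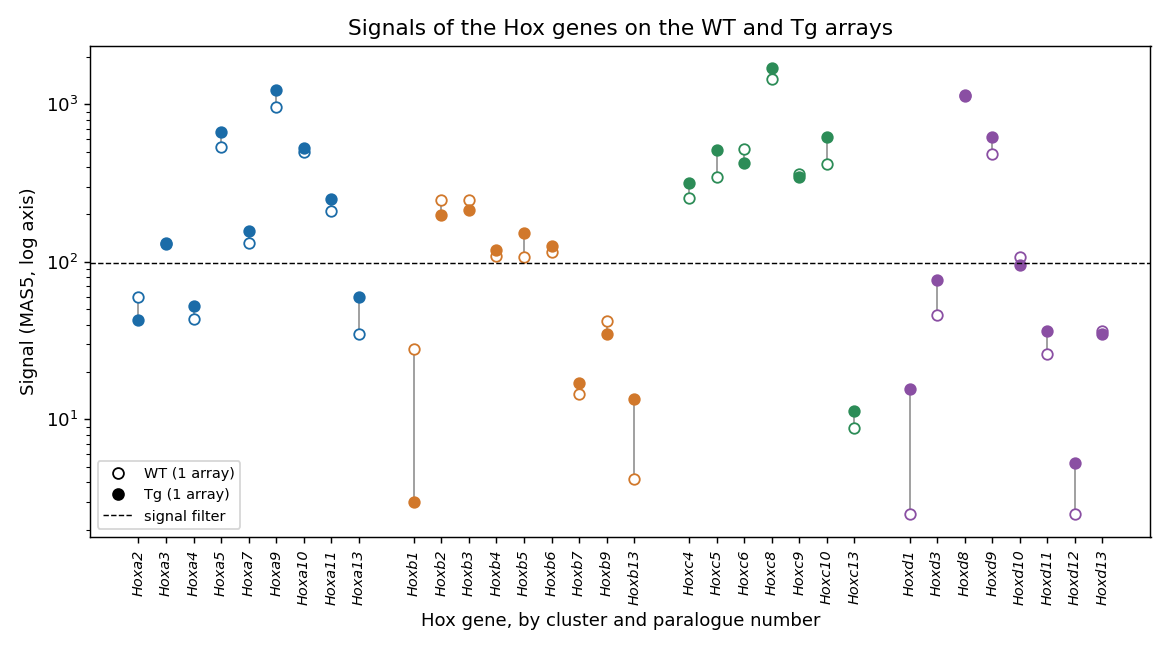
MAS5 signal (log axis) of each of the 33 *Hox* genes on the WT array (open circles) and the Tg array (filled circles), ordered by cluster and paralogue number, with the signal filter of 98.2 as a dashed line and no error bars because each genotype is 1 array. The paralogues numbered 4 to 10 lie mostly above the line, and those numbered 11 to 13 lie below it except for *Hoxa11*.

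The share of *Hox* genes that passed differed with the paralogue number. In groups 4 to 10, 16 of 19 measured genes passed (84.2%), the exceptions being *Hoxa4* with signals of 43.2 in WT WAT and 52.7 in Tg WAT, *Hoxb7* with 14.5 and 17.1, and *Hoxb9* with 42.3 and 34.6. In groups 11 to 13, 1 of 7 passed (14.3%), *Hoxa11*, a gene of uterus, kidney and limb development, with a signal of 210.7 in WT WAT and 250.6 in Tg WAT. In groups 1 to 3, 3 of 7 passed. The 13 genes that did not pass had signals between 2.5 and 76.8. Of them, *Hoxa13* had 34.7 in WT WAT and 60.0 in Tg WAT, *Hoxd13* had 36.2 and 34.7, and *Hoxb13* had 4.2 and 13.4. These 3 belong to the group used nearest the tail, as does *Hoxc13* with 8.8 and 11.3. From groups 1 to 3, *Hoxa2* had 60.2 and 43.0, *Hoxb1* 28.0 and 3.0, *Hoxd1* 2.5 and 15.7, and *Hoxd3* 46.3 and 76.8. The remaining genes under the filter were *Hoxd11* (26.0 and 36.5) and *Hoxd12* (2.5 and 5.3). A signal under the filter is not evidence that a gene was off. Probe sets that *Hoxb7* and *Hoxd3* share with a neighbouring gene did reach the filter. They are described below and were not counted in these shares.

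With the threshold of 0.3 on the signal log ratio, which is a fold of 1.231, 7 of the 20 *Hox* genes were over 0.3, 1 was under -0.3 and 12 lay between. Over all 11587 genes that passed, 16.6% were over 0.3 and 16.9% under -0.3. The *Hox* genes thus had 35% over and 5% under. Among the 8188 genes with signals in the same range as the 20 *Hox* genes, 17.1% were over and 18.4% under. The median signal log ratio of the *Hox* genes was 0.18, with a range of -0.30 to 0.57, beside a median of 0.02 over all genes. In all, 13 *Hox* genes (65%) had the larger signal on the Tg array, as did 53.2% of all genes. None of the 20 differed by 2-fold, beside 2.89% of all genes, under 1 gene in 20.

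Another scaling moved these counts. With each array divided by its median signal, 10 *Hox* genes were over 0.3 and 0 under -0.3, and all genes split into 24.9% over and 13% under, because the median of all genes moved up by 0.08. Relative to the median of all genes, the *Hox* median was higher by 0.16 as deposited, 0.16 with median centring, 0.19 with quantile normalization and 0.18 with loess.

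**Figure D2:**
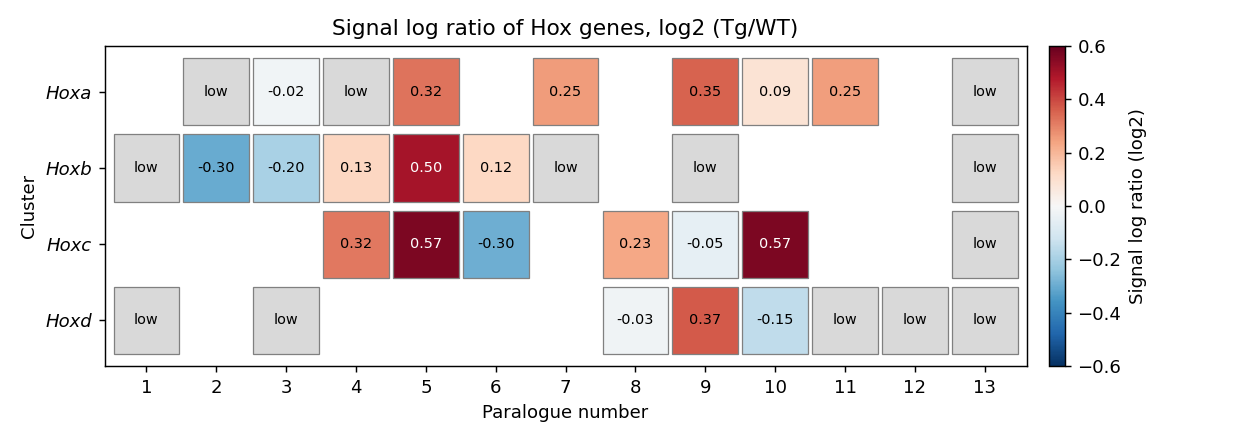
Signal log ratio (log2 of Tg over WT, colour and number) of each *Hox* gene by cluster (rows) and paralogue number (columns). Grey cells marked low did not pass the signal filter, and blank positions hold no gene or one not analysed here. The column of paralogue number 5 holds 3 values of 0.32 to 0.57.

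In the *Hoxa* cluster, 6 of 9 measured genes passed, 2 were over 0.3 and none under -0.3, with a median of 0.25. *Hoxa9*, known for its part in blood cell formation and leukaemia, had a signal of 969.0 in WT WAT and 1237.7 in Tg WAT, a signal log ratio of 0.35. *Hoxa5*, which patterns the neck and upper trunk and is needed for lung development, had 533.0 and 667.2, a signal log ratio of 0.32. Both had the larger signal on the Tg array, with folds of 1.28 and 1.25. *Hoxa7* had 131.3 in WT WAT and 156.6 in Tg WAT, and its signal log ratio was 0.25. *Hoxa11* also had a signal log ratio of 0.25. *Hoxa10*, which like *Hoxa11* is needed in the uterus, had 499.4 and 531.1, a signal log ratio of 0.09. *Hoxa3*, a gene of thymus and parathyroid development, had nearly the same signal on both arrays, 131.1 and 129.1, a signal log ratio of -0.02.

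In the *Hoxb* cluster, 5 of 9 measured genes passed, 1 was over 0.3 and 1 under -0.3, with a median of 0.12. *Hoxb5* had a signal of 107.3 in WT WAT and 151.9 in Tg WAT, a signal log ratio of 0.50 or 1.42-fold. *Hoxb2*, a gene of the hindbrain, had 245.6 and 199.4. Its signal log ratio of -0.301 was the one value under -0.3 and lay just beyond the threshold. *Hoxb3* had 246.0 and 214.8, a signal log ratio of -0.20. *Hoxb4* and *Hoxb6* had the larger signal on the Tg array but stayed within the threshold: *Hoxb4*, known for expanding blood stem cells when overexpressed, had 109.0 and 119.0 (0.13), and *Hoxb6* had 116.0 and 126.4 (0.12).

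In the *Hoxc* cluster, 6 of 7 measured genes passed, 3 were over 0.3 and none under -0.3, with a median of 0.27. *Hoxc10* had a signal of 418.6 in WT WAT and 619.9 in Tg WAT, and *Hoxc5* had 347.2 and 514.4. Both had a signal log ratio of 0.57 or 1.48-fold, the largest among the 20 genes. *Hoxc4* had 254.7 and 317.2, a signal log ratio of 0.32 and a fold of 1.25. *Hoxc8*, the factor that holds back brown fat genes, had 1443.3 and 1696.0, a signal log ratio of 0.23. *Hoxc9*, the white fat marker, had 361.1 and 347.7, a signal log ratio of -0.05, so that it and its neighbour *Hoxc10* were on different sides of the threshold. *Hoxc6*, which helps set the forelimb level of the spinal cord, had 517.5 and 421.7, and its signal log ratio of -0.295 lay just inside the threshold.

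In the *Hoxd* cluster, 3 of 8 measured genes passed and 1 was over 0.3, with a median of -0.03. *Hoxd9*, which acts with its paralogues in mammary gland growth, had a signal of 481.7 in WT WAT and 622.0 in Tg WAT, a signal log ratio of 0.37 or 1.29-fold. *Hoxd8* had similar signals on both arrays, 1152.8 and 1131.3, a signal log ratio of -0.03. *Hoxd10*, with a role in hindlimb motor neurons, had 106.9 and 96.1, a signal log ratio of -0.15 next to the filter.

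**Figure D3:**
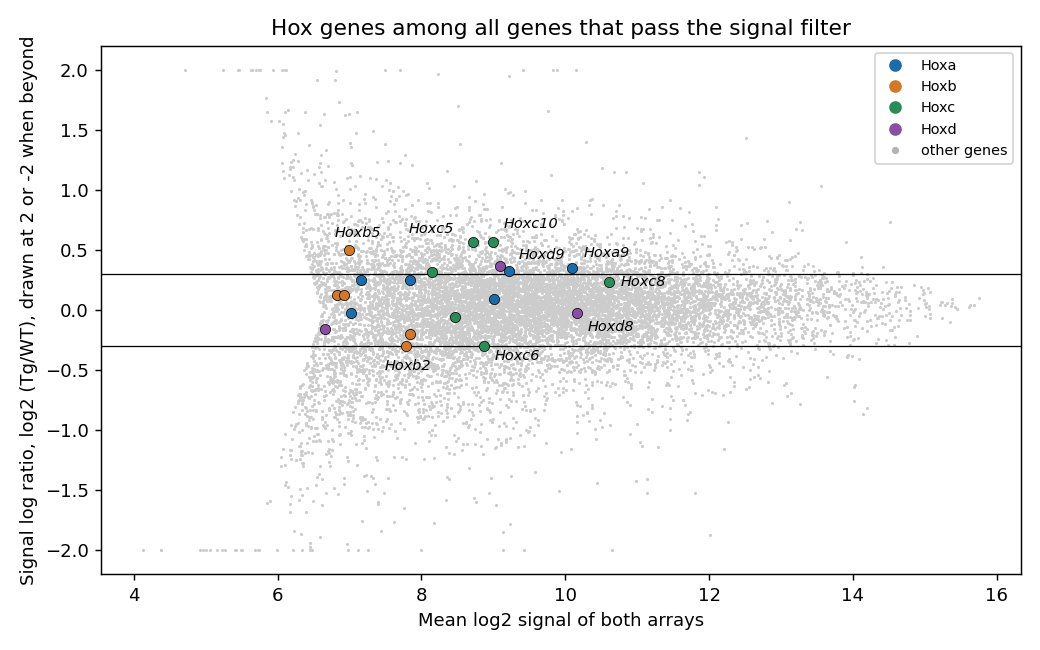
Signal log ratio (log2 of Tg over WT) (vertical axis) against the average of the WT and Tg log2 signals (horizontal axis) for all genes that passed the signal filter (grey points) and for the 20 *Hox* genes (coloured by cluster), with lines at 0.3 and -0.3. The *Hox* genes lie between -0.30 and 0.57, inside the cloud of other genes at the same signal.

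Across clusters, the paralogues numbered 5 were the one group with all its measured genes over 0.3: *Hoxa5*, *Hoxb5* and *Hoxc5* had a median of 0.50. This depended on the probe sets used. With the median over all probe sets, those under the filter included, *Hoxa5* was at 0.09 and *Hoxc5* at 0.27. *Hoxb5*, with its single probe set, was then the 1 gene left over 0.3. For *Hoxc5* that median took in a probe set under the filter, with 7.5 in WT WAT and 3.8 in Tg WAT (-0.98). Its probe sets that passed were at 0.57 and 0.27. In groups 1 to 3, *Hoxa3*, *Hoxb2* and *Hoxb3* all had signal log ratios below 0, with a median of -0.20, but *Hoxa3* was at 0.06 with median centring or quantile normalization and 0.03 with loess. Groups 4 to 8 had 10 genes that passed, 4 of them over 0.3 and none under -0.3, with a median of 0.24. Groups 9 and 10 had 6 genes that passed, 3 of them over 0.3 and none under -0.3, with a median of 0.22. Paralogues were not alike in every group: of number 9, *Hoxa9* and *Hoxd9* were over 0.3 while *Hoxc9* was at -0.05, and of number 10, *Hoxc10* was at 0.57 while *Hoxa10* was at 0.09 and *Hoxd10* at -0.15.

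How far probe sets of one gene differ gives the only measure of error in these data, and it covers the probes and not the mice. The SD of the signal log ratio among all probe sets of a gene that passed was pooled over genes with at least 2 of them. It was 0.41 over 5260 such genes, and 0.40 over the 7 such *Hox* genes. This SD is larger than the threshold of 0.3. Only *Hoxb5*, *Hoxc5* and *Hoxc10* were above it (3 of 20, or 15%), and no *Hox* gene was below its negative, beside 9.89% and 11.9% of all genes.

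The second-brightest probe sets did not give the pattern of the brightest. Of the 7 *Hox* genes, 5 had the opposite sign on their second probe set and 2 the same sign. The same share over all genes is not given here, so this count is not read as particular to *Hox* genes. Among the 5, *Hoxa3* on its brightest probe set (-0.02) and *Hoxc6* on its second (0.03) were close to 0. *Hoxa5* had 301.4 in WT WAT and 272.6 in Tg WAT there, a signal log ratio of -0.14. *Hoxa9* had 252.9 and 209.8, a signal log ratio of -0.27. Both genes were over 0.3 on their brightest probe set, so their direction depended on the probe set chosen. *Hoxa3* had 72.8 and 129.0 (0.83), and *Hoxb3* had 89.4 and 122.1 (0.45). These genes were near or below 0 on their brightest probe sets. *Hoxd8* had 719.0 and 492.2 on its second probe set (-0.55), *Hoxc6* had 382.9 and 389.9 (0.03), and *Hoxc5* had 90.4 and 109.0 (0.27). *Hoxc5* was thus the 1 gene over 0.3 with a second probe set that passed and had the same sign. However, the second probe sets of *Hoxc5*, *Hoxa3* and *Hoxb3* reached the filter on the Tg array alone, where their signals were larger. Their positive sign is therefore tied to how they passed and is not support for a difference. The 7 second probe sets had 2 over 0.3 and 1 under -0.3, with a median of 0.03, beside 17.0% over and 25.8% under among all 5260 second-brightest probe sets. *Hoxb5*, *Hoxc4*, *Hoxc10* and *Hoxd9*, the other 4 genes over 0.3, had a single probe set each.

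**Figure D4:**
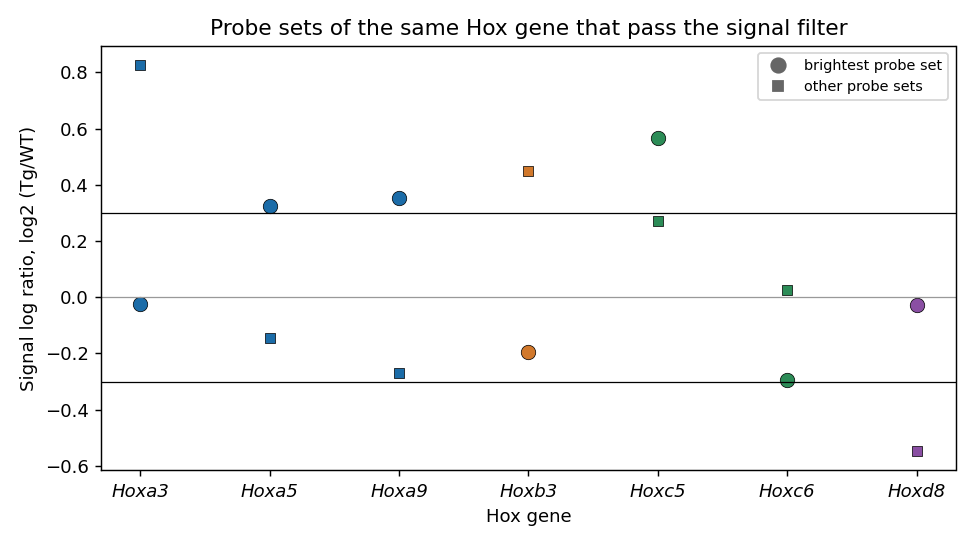
Signal log ratio (log2 of Tg over WT) of the probe sets that passed the signal filter for the 7 *Hox* genes with more than 1, the brightest as a circle and the others as squares, with lines at 0, 0.3 and -0.3. The circle and the square lie on opposite sides of 0 for all genes shown except *Hoxc5* and *Hoxd8*.

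With every *Hox* probe set counted, 27 of 48 passed, 9 were over 0.3 and 2 under -0.3, with a median of 0.13. The 9 include the second probe sets of *Hoxa3* and *Hoxb3*, which reached the filter on the Tg array alone and are not support for a difference. Among all 23713 probe sets that passed, 17.8% were over and 21.5% under. Probe sets shared by neighbouring genes were kept apart, since they name no single gene. The shared *Hoxb8* and *Hoxb7* probe set had 407.3 in WT WAT and 344.7 in Tg WAT (-0.24). One shared by *Hoxd4* and *Hoxd3* had 132.9 and 123.2 (-0.11), and another had 116.7 and 136.0 (0.22), so that these 2 differed in sign. The RefSeq span of *Hoxa3* overlaps each of *Hoxa4*, *Hoxa5* and *Hoxa6*. Spans also overlap between *Hoxb3* and *Hoxb4*, between *Hoxd3* and *Hoxd4*, and between *Hoxd10* and *Hoxd11*. Signals of such neighbours may share transcripts.

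Of 17 other transcripts listed for the clusters, 3 antisense transcripts were measured and passed. *Hoxa11os*, antisense to *Hoxa11*, had 111.8 in WT WAT and 151.1 in Tg WAT, a signal log ratio of 0.43. *Hoxb5os* had 146.4 and 156.8 (0.10), and *Hoxd3os1* had 999.6 and 966.1 (-0.05). None of the 8 *Cdx*, ParaHox and *Evx* genes listed, which are upstream regulators and relatives of the *Hox* genes, passed, with signals between 2.7 and 45.4.

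The proteins that bind DNA together with Hox factors, the TALE homeodomain cofactors, were 9 in the list. Of them 7 passed, 3 were over 0.3 (42.9%, beside 16.6% of all genes) and 1 under -0.3 (14.3%, beside 16.9%), with a median of 0.10. The 3 were the *Meis* genes. *Meis2* had a signal of 454.0 in WT WAT and 743.1 in Tg WAT, a signal log ratio of 0.71. *Meis1* had 322.7 and 424.5 (0.40), and *Meis3* had 134.7 and 188.4 (0.48). All 3 were over 0.3 under each scaling, between 0.42 and 0.79. A second probe set of *Meis1* had 237.4 and 453.6 (0.93), while other probe sets of *Meis2* had 0.34, 0.61 and -0.08. *Pknox2* had 177.1 and 140.3, a signal log ratio of -0.34 that was -0.29 to -0.25 under the other scalings. The *Pbx* genes that passed lay within the threshold: *Pbx2* was at 0.10 and *Pbx3* at -0.13.

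Chromatin regulators that keep *Hox* genes silent or active were read beside all genes, of which 66.4% lay within the threshold. Of 28 Polycomb genes, which maintain silencing, 25 passed, 3 were over 0.3 and 1 under -0.3, with a median of 0.05. *Ring1* had 317.2 in WT WAT and 478.0 in Tg WAT (0.59), *Cbx7* had 493.9 and 635.9 (0.36), *Eed* had 1432.5 and 1825.5 (0.35) and *Cbx8* had 224.1 and 162.1 (-0.47). Of 14 Trithorax genes and H3K27 demethylases, which maintain activity, 13 passed, 2 were over 0.3 and none under -0.3, with a median of 0.08. *Kmt2d* had 422.1 and 540.4 (0.36), and *Setd1b* had 501.5 and 631.8 (0.33).

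Other genes that tell fat depots apart were read beside the *Hox* genes. Of 9 visceral position genes, 8 passed, 5 were over 0.3 and 1 under -0.3, with a median of 0.34. These counts are 62.5% over and 12.5% under, beside 16.6% and 16.9% of all genes that passed. *Wt1*, the mesothelial transcription factor, had 594.3 in WT WAT and 967.0 in Tg WAT (0.70), and *Thbd* had 2786.0 and 4405.9 (0.66). *Bnc1* had 817.0 and 1121.6 (0.46), and *Gata6* had 1266.0 and 1638.7 (0.37), although 2 other *Gata6* probe sets were at -0.21 and -0.35. *Tcf21*, a visceral progenitor gene, had 789.2 and 638.8, a signal log ratio of -0.31 that lay between -0.30 and -0.22 under the other scalings. Its second probe set had 76.0 and 105.5 (0.47), and reached the filter on the Tg array alone, so its positive sign is tied to how it passed. Of 4 subcutaneous position genes, *Tbx15* (3.3 and 39.5), *Shox2* (62.1 and 43.3) and *En1* (29.3 and 8.6) did not pass, and *Sfrp2* did with 1271.7 and 1976.0 (0.64). Of 4 interscapular brown fat genes, *Zic1* (12.9 and 11.0) and *Lhx8* (1.6 and 13.8) did not pass. *Epsti1* had 583.8 and 545.9 (-0.10, with other probe sets at -0.55 and 0.21). The probe set at 0.21 reached the filter on the Tg array alone. *Mpzl2* had 96.5 and 209.1 (1.12), and a second probe set had 46.4 and 158.9 (1.78). Both *Mpzl2* probe sets reached the filter on the Tg array alone, and another, under the filter, had 52.2 and 67.0 (0.36).

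Cell markers also differed between the arrays. Their counts are read beside all genes that passed, of which 16.6% were over 0.3 and 16.9% under -0.3. All 10 mesothelial markers, *Wt1* among them, had the larger signal on the Tg array, 5 were over 0.3 and the median was 0.31, with a summed signal of 10259.9 in WT WAT and 12401.7 in Tg WAT. Of 10 macrophage markers, 5 were under -0.3 and none over 0.3, with a median of -0.33 and a summed signal of 53401.9 and 43754.2. Adipocyte markers had 2 of 10 over 0.3 and 1 under -0.3 (median 0.10), and progenitor and fibroblast markers 1 of 10 over and 1 under (median -0.05). Endothelial markers had a median of -0.09, smooth muscle and pericyte markers -0.24, and the 4 skeletal muscle markers that passed -0.72. Of these 4, *Pvalb* (391.0 and 49.6), *Tnni2* (127.8 and 77.9) and *Mylpf* (113.6 and 69.1) reached the filter on the WT array alone. Their negative sign is therefore tied to how they passed, while *Acta1* reached it on both arrays with 5450.6 and 5352.8 (-0.03). Of 16 markers of oviduct, uterus and ovary, tissues that also use *Hox* genes of groups 9 to 13, 4 passed: *Star* had 161.5 and 229.1, *Msx1* 71.4 and 114.3, *Wnt7a* 104.9 and 98.5, and *Foxl2* 193.9 and 104.3. *Msx1* reached the filter on the Tg array alone. Mammary and other epithelial markers had 1 of 10 that passed and B cell markers 4 of 7. In whole tissue, fewer cells of a type and less RNA per cell cannot be told apart, and the part of these cells in the *Hox* values was not tested.

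**Figure D5:**
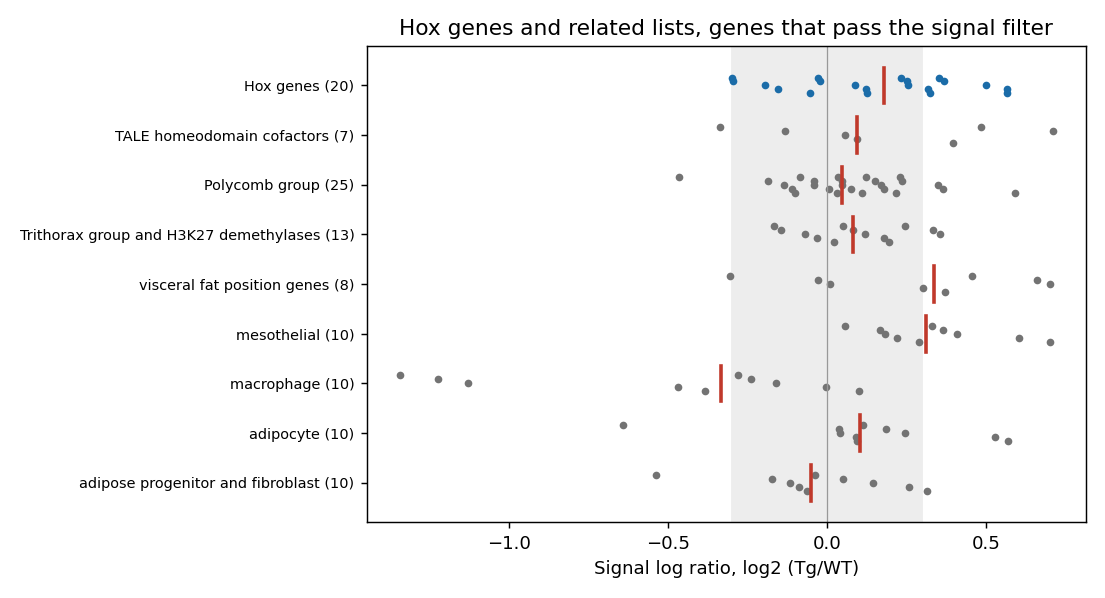
Signal log ratio (log2 of Tg over WT) of each gene that passed the signal filter (points) and the median of each list (red bar), with the range between -0.3 and 0.3 shaded and the number of genes in brackets. The *Hox* median of 0.18 lies between those of the visceral position genes (0.34) and the macrophage markers (-0.33).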

How the data were processed

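Total RNA from perigonadal WAT of HFD-fed WT and PeriA Tg mice was pooled from 3 mice per genotype and hybridised to 1 array each. The deposited values are intensity on a linear scale: MAS5 signals that the authors made with the GeneChip Operating Software. The notes deposited on processing give MAS5 as the method. MAS5 subtracts mismatch from perfect-match probes, which makes low signals unreliable, and scales whole arrays; the 2% trimmed mean was 500.0 on both. Median signals were 101.1 (WT) and 95.4 (Tg). For the mouse control transcripts, the signal log ratio of the 5′ probe set minus that of the 3′ probe set had a median of -0.21 over 4 pairs, and for the poly-A spikes -0.55 over 8 pairs.

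Signal log ratios were computed from the deposited signals without further normalization or pseudocount. The authors used Present calls, which were not used here, and the signal filter stands in for them. Control probe sets (64) were left out. Symbols came from the platform annotation: 34945 probe sets had 1 symbol, 932 several, and 9160 were not listed. Promoters and cluster positions came from RefSeq (GRCm38.p6). *Hox* genes were named whether or not they passed, with up to 4 members of each other list by size of the signal log ratio, plus defining markers. Members, lists and thresholds were chosen with earlier results of these data known. Groups came from the sample labels. The calculation was tested on simulated data. Python 3.11.15, pandas 2.3.3, scipy 1.17.1 and statsmodels 0.14.6 were used. Alternatives were 3 other scalings (loess span 0.3), a pseudocount of 25.1, a floor of 56.9, rounding, other filters (none, 470.5, or the mean log2 signal) and other ways to choose the probe set.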

Additional observations from a re-analysis of the deposited data

How the results depend on the processing

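The *Hox* median ranged over the alternatives run from 0.03 (second-brightest probe sets) to 0.32 (filter of 470.5). The value of 0.03 is not support for a median above 0. It includes the second probe sets of *Hoxa3*, *Hoxb3* and *Hoxc5*, which reached the signal filter on the Tg array alone. The other second probe sets were at -0.14 (*Hoxa5*), -0.27 (*Hoxa9*), 0.03 (*Hoxc6*) and -0.55 (*Hoxd8*). The count over 0.3 was 7 as described, 14 with no filter, where low signals enter, 2 on second-brightest probe sets, and 5 to 10 under the others. With the median over probe sets it was again 7, but *Hoxa5* (0.09), *Hoxa9* (0.04) and *Hoxc5* (0.27) left and *Hoxa3* (0.40), *Hoxa10* (0.53) and *Hoxb4* (0.55) entered. This median also takes in probe sets under the filter. The second probe set of *Hoxa10* had 15.5 in WT WAT and 30.3 in Tg WAT, and that of *Hoxb4* had 37.9 and 74.3. The medians of *Hoxa3* and *Hoxc5* likewise include probe sets under the filter. The count under -0.3, which was *Hoxb2* alone, fell to 0 with median centring, quantile normalization, loess, the pseudocount, rounding to 1 decimal and the filter of 470.5, and was 3 with no filter and 2 with probe sets counted in place of genes. By construction, 33 genes entered with no filter, 9 with the filter of 470.5 and 7 with second-brightest probe sets. Over all genes, 24.9% were over 0.3 and 13% under -0.3 with median centring. Quantile normalization gave 18.1% and 15.7%, loess 17.4% and 16.2%, second-brightest probe sets 17.0% and 25.8%, and all probe sets 17.8% and 21.5%. For the other alternatives the share over all genes is not given. Their counts are therefore not read as particular to *Hox* genes. *Hoxb5*, *Hoxc10* and *Hoxd9* were over 0.3 in all alternatives that gave them a value (0.42 to 0.59, 0.54 to 0.65 and 0.35 to 0.45), but each has 1 probe set. For them the floor, the other filters and the other probe set choices could only return the same value or none. *Hoxb5*, with 107.3 in WT WAT, lay near the signal filter and did not pass the filter of 470.5. On the second-brightest probe set the sign turned for *Hoxa5* (-0.14) and *Hoxa9* (-0.27), and *Hoxc5* was at 0.27; the cause was not tested. *Hoxc4* was at 0.29 with the pseudocount. *Hoxa7* passed 0.3 under all 3 other scalings, and *Hoxa11* and *Hoxc8* with median centring. No paired analysis was possible because each genotype has 1 array, and for the same reason no replicate could be left out. The number of arrays limits the precision of all values here.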
